A study of Homo sapiens with 47 samples.

Results

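The 6 cultured LM2 cells of this series fell into 3 gene-rich cells (LM-1, LM-P3 and LM-P4) and 3 gene-poor cells (LM-2, LM-3 and LM-10). They were chosen by the number of genes with a value above 0, at least 10000 against fewer than 10000, among 43 cells with expression values. LM2 is a lung-metastatic derivative of MDA-MB-231, an established human triple-negative breast cancer (TNBC) line with mesenchymal features. The study carried LM2 cells labeled with GFP, picked 6 of them from tissue culture as a quality control for SMARTseq2, and obtained values for 37 circulating tumor cells (CTC) from the blood of 5 immunodeficient NSG mice bearing LM2 tumors. LM2 cells were grown in DMEM with 10% FBS, and no treatment of the cultured cells is named. The labels and methods name no allele or agent in which the groups differ. Nothing in the labels places the 6 cells in separate cultures, so they are 1 sample, and the split was made on a measured value. All differences between gene-rich and gene-poor cells are therefore descriptions without a test, and no p-value is given.

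SMARTseq2 copies polyadenylated RNA from oligo-dT and amplifies full-length cDNA by PCR, without unique molecular identifiers. A gene with few transcripts in a cell can be lost before amplification, whereas abundant transcripts, such as those of ribosomal proteins, glycolytic enzymes and cytoskeletal actins, are rarely lost. Cultured cells also differ in cell cycle phase and in short-lived responses. Cyclins and mitotic kinesins accumulate toward mitosis, DNA replication enzymes and histones accumulate earlier, and immediate early genes and cytokines are transcribed in bursts.

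The unit throughout is the normalized count, the reads of a gene divided by the size factor of its cell. Reads on genes ranged from 776949 to 1186197 per cultured cell. The gene-rich cells had 896379 (LM-1), 787260 (LM-P4) and 1186197 (LM-P3) reads, and the gene-poor cells had 776949 (LM-10), 949271 (LM-3) and 926240 (LM-2), so that depth overlapped between the groups. All 43 cells share the same batch label. The letter P in the names of LM-P3 and LM-P4 is not explained in the labels or the methods. Both P cells were gene-rich, the part of this letter in the results was not tested, and LM-1, without the letter, was gene-rich as well. The labels call each library a single cell, and no value used here checks the number of cells in a tube. The share of reads on mitochondrial genes was 4.05 to 4.43% in the gene-rich cells and 4.76 to 5.74% in the gene-poor cells, without overlap, and its part in the results was not tested. The number of PCR cycles varied between cells, is not given per cell in the sources used here, and cannot be told apart from the groups.

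Markers of the line were found in both groups. All 12 markers that MDA-MB-231 expresses highly were detected in all 6 cells, among them the intermediate filament gene VIM (4205 to 5139 in gene-rich and 5139 to 7232 in gene-poor cells) and the receptor tyrosine kinase gene AXL (3342 to 6511 and 2378 to 5105). Of 7 genes expected to be absent, ESR1, PGR, FOXA1, CDH1 and KRT14 had no reads in any cultured cell. GATA3, a luminal transcription factor, had values of 11.3 in LM-P4, 13.1 in LM-P3 and 34.2 in LM-3, and ERBB3 had 9.68 in LM-P4 and 2.37 in LM-P3. None of 8 erythroid genes had a read. Of 13 leukocyte genes, PTPRC, the defining marker, was at 0 in all 6 cells, and the share of reads on the list was 0.0202 to 0.0272% in the gene-rich and 0.00648 to 0.0299% in the gene-poor cells. LAPTM5, a lysosomal membrane gene of hematopoietic cells, made up nearly all of it (278 to 366 and 75.3 to 400). Of 6 platelet genes, PPBP and PF4 were at 0, and at most 2 members were detected in a cell.

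The gene-rich cells detected 1.65 times as many genes as the gene-poor cells on average. LM-1 detected 11912 genes, LM-P4 12792 and LM-P3 13679. LM-10 detected 7369 genes, LM-3 7405 and LM-2 8467. The cell just inside the threshold was LM-1 and the cell just outside was LM-2, with no other cultured cell in between. Among the CTCs, genes detected ranged from 2313 to 12299 with a median of 7569, and 5 of 37 CTCs reached 10000. Of the CTCs, 10 lay above LM-2 and 1 of these lay above LM-1, so the gap holds among the cultured cells only.

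The gap was present at every depth computed, from 10000 reads up. At 776949 reads, the depth of the shallowest cell, the expected numbers were 11736 in LM-1, 12772 in LM-P4 and 12987 in LM-P3 against 7369 in LM-10, 7280 in LM-3 and 8328 in LM-2. With 100000 reads kept, the gene-rich cells were at 8444 to 9105 genes and the gene-poor cells at 5818 to 6118.

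**Figure D1:**
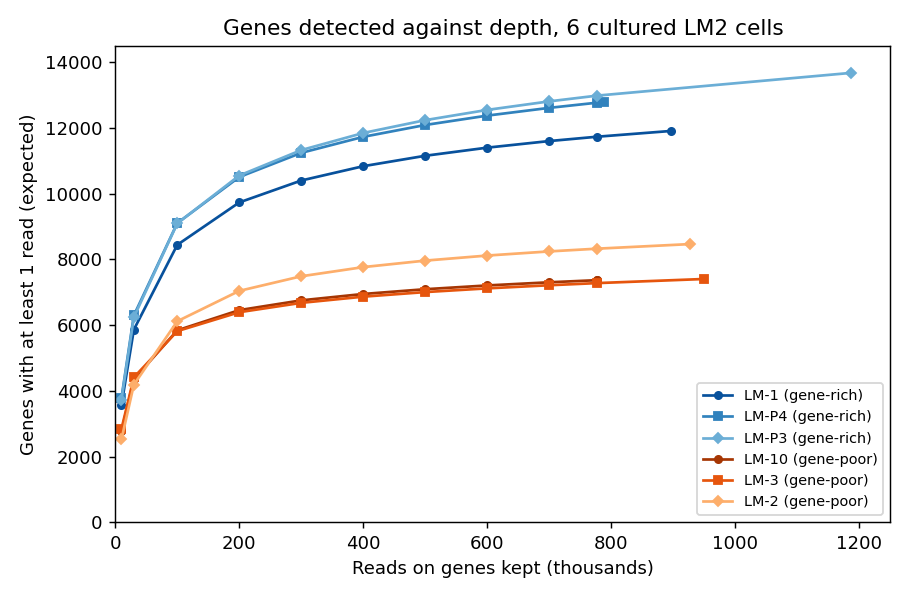
Expected number of genes with at least 1 read (y axis) when each cultured LM2 cell is thinned to a number of reads (x axis), 1 line per cell. The blue lines of the 3 gene-rich cells lie above the orange lines of the 3 gene-poor cells at every depth, 11736 to 12987 against 7280 to 8328 genes at 776949 reads.

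Detection above higher minimum values narrowed the gap. Genes with a value of at least 8 numbered 8931 to 9443 in gene-rich and 5971 to 6143 in gene-poor cells, genes of at least 128 numbered 2133 to 2739 and 1311 to 1853, and genes of at least 512 overlapped, at 410 to 687 and 374 to 482. The reads of the gene-poor cells were concentrated on fewer genes. Their 100 genes with the most reads held 34.7% of the reads in LM-10, 34.2% in LM-3 and 41.0% in LM-2, against 24.9% in LM-1, 23.6% in LM-P4 and 24.5% in LM-P3. Protein-coding genes detected numbered 10531 to 11615 in gene-rich and 6676 to 7663 in gene-poor cells, and long noncoding RNA (lncRNA) genes 854 to 1286 and 286 to 358. Processed pseudogenes overlapped, with 285 to 413 and 293 to 316 detected.

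The genes of the gene-poor cells were largely a subset of those of the gene-rich cells. Of the genes detected in LM-10, 97.3% were also detected in at least 1 gene-rich cell and 91.0% in all 3 of them, and the shares were 97.0% and 90.5% for LM-3 and for LM-2. The 3 gene-poor cells together detected 10943 genes, fewer than LM-1 alone. They shared 4800 of these (43.9%), whereas the gene-rich cells shared 10559 of 15414 (68.5%). A total of 4732 genes were detected in all 6 cells, 1373 in all gene-rich and no gene-poor cell, and 9 in all gene-poor and no gene-rich cell, of which 8 are pseudogenes. The 1373 genes were expressed at a low level in the gene-rich cells (median of the mean values 9.17, against 121 for the 4732 genes found in all 6). In the CTCs, which the rule did not use, these 1373 genes were detected in a median of 27.0% of cells (quartiles 13.5 and 40.5%), against 83.8% for the 4732 genes (quartiles 67.6 and 91.9%).

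Expression was more alike among gene-rich than among gene-poor cells. Spearman's correlation over all genes was 0.898 to 0.910 between 2 gene-rich cells, 0.681 to 0.718 between 2 gene-poor cells and 0.724 to 0.794 across the groups. LM-1 correlated with LM-P4 at 0.900 and with LM-P3 at 0.898, close to the 0.910 of the P cells with each other. Each gene-poor cell correlated more with every gene-rich cell than with either of the other gene-poor cells. Over the 4732 genes detected in all 6 cells, where absence cannot enter, the correlations were 0.913 to 0.951 among gene-rich and 0.653 to 0.704 among gene-poor cells. The highest correlation of 2 CTCs among 666 pairs was 0.766. These pairs share cells and are values of single cells, so they are given without a p-value.

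**Figure D2:**
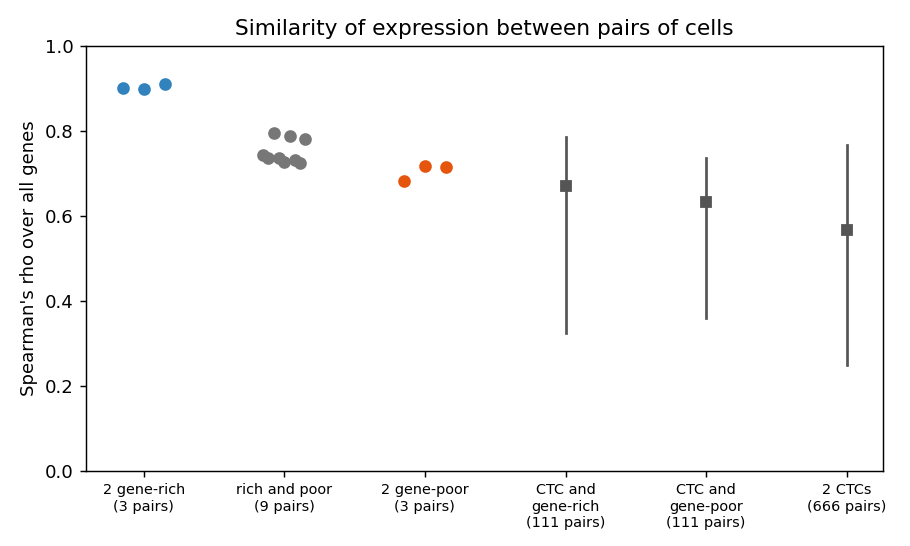
Spearman's rho over all genes (y axis) for pairs of cells. Points are pairs of cultured cells; bars run from the lowest to the highest pair that includes a CTC, with a square at the median. The 3 gene-rich pairs lie at 0.898 to 0.910, above all other pairs.

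Gene-poor cells also lacked a small part of the genes of high level. Of 2350 genes with a value of at least 100 in every gene-rich cell, 87 had no read in LM-3 (3.70%), 39 had none in LM-10 (1.66%) and 15 had none in LM-2 (0.638%). Of the 2350, 121 were without reads in 1 gene-poor cell, 10 in 2 and 0 in all 3. Whether the missing genes of the gene-poor cells coincide more or less than independent losses would was not tested. Conversely, all 1099 genes with a value of at least 100 in every gene-poor cell had reads in each gene-rich cell. Within groups, 2.00 to 6.38% of the genes at 100 or more in a gene-poor cell were at 0 in another gene-poor cell, and at most 0.0301% between gene-rich cells. For 2 CTCs this share had a median of 6.27%, with a range of 0 to 66.7%.

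Genes were then compared between the groups by a rule of size. A gene counted as higher in gene-rich cells when their lowest value was above the highest gene-poor value, the mean plus 1 was at least 4 times that of the gene-poor cells, and the larger mean was at least 8; genes counted as lower met the mirrored rule. Of 9729 genes with a mean of at least 8 in either group, 2146 counted as higher (22.1%) and 4 as lower (0.0411%). The rule that formed the groups used the same values, so this excess of higher genes is a description. Without the 4-fold criterion, 35.1% of the genes did not overlap in the higher direction and 0.905% in the lower. Scaling moved the count. The median log2 ratio of all genes tested under a scaling was 0.87 with the deposited size factors, 0.59 with reads scaled to the library total (CPM) and 0.13 with a median-ratio scaling on the 4732 genes detected in all 6 cells, and 1488 and 889 genes counted as higher under the latter scalings (16.6% of 8954 and 10.5% of 8448 tested). Of the 2146 genes, 2049 are protein-coding, 68 are lncRNAs, and 777 had no read in any gene-poor cell.

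The difference followed expression level. Among genes with a mean under 32 over the 6 cells, 37.4% counted as higher, with a median log2 ratio of 1.55 (1679 of 4487). The share was 13.0% for means of 32 to 128 (417 of 3208, median 0.80), 2.98% for 128 to 512 (47 of 1578, median 0.49) and 0.658% for 512 or more (3 of 456, median -0.05). The spread between cells followed level as well. The median SD of log2 values was 0.65 among gene-rich and 1.90 among gene-poor cells for means under 32, 0.41 and 1.62 for 32 to 128, 0.38 and 0.81 for 128 to 512, and 0.33 and 0.40 for 512 or more.

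**Figure D3:**
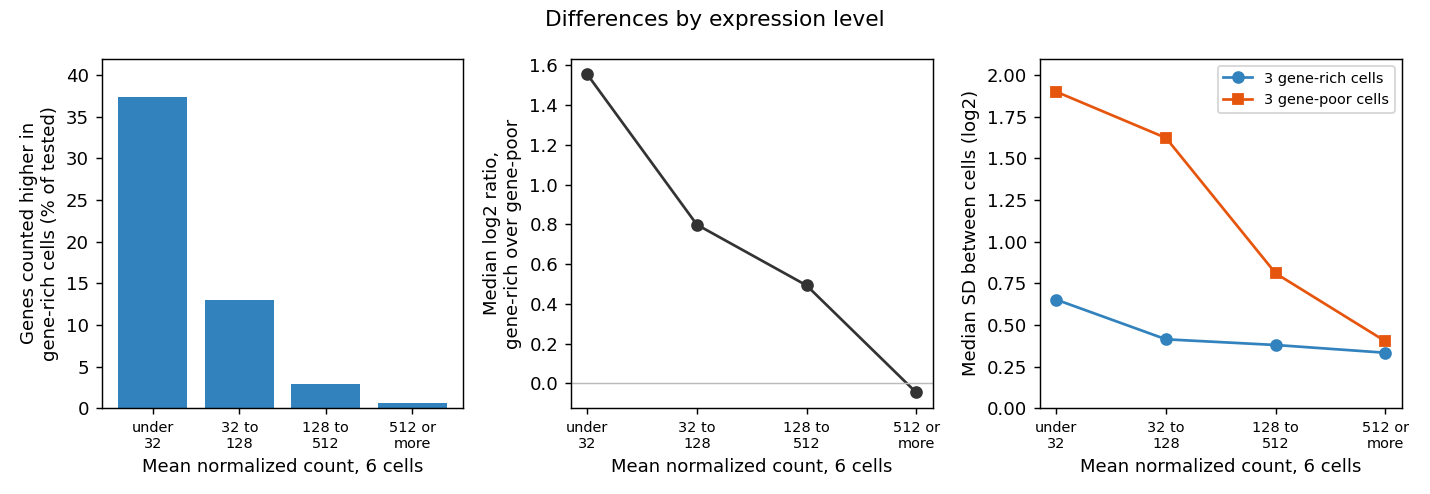
Genes grouped by mean normalized count over the 6 cultured cells (x axis). Left, percent of tested genes counted as higher in gene-rich cells, falling from 37.4 to 0.658%; middle, median log2 ratio of gene-rich over gene-poor means; right, median standard deviation of log2(normalized count + 1) among the 3 cells of each group, which is wider in gene-poor cells.

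Most of the 10 protein-coding genes with the largest ratios had no read in any gene-poor cell. For such genes a lower bound was set from 3 reads over the 3 gene-poor cells, on the CPM scale. MMP1 (chr11:102789401-102798160, GRCh38), the interstitial collagenase, had values of 217 in LM-1, 75.9 in LM-P4 and 800 in LM-P3 and was at least 256-fold higher. Its 830 reads in the gene-rich cells (exact 95% Poisson interval 774 to 888) stood against 0 in the gene-poor cells; such intervals cover counting error only. MMP1 was detected in 5 of 37 CTCs. FOS (chr14:75278826-75282230), a subunit of AP-1, had 25.9, 407 and 310 in the same order and was at least 162-fold higher. FOS was detected in 32 of 37 CTCs.

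IL1B (chr2:112829751-112836816), the cytokine interleukin-1 beta, was the exception, with 3105, 279 and 859 in the gene-rich cells and 0 in LM-10, 20.5 in LM-3 and 15.1 in LM-2. Its summed reads were 2458 (2362 to 2557) against 27 (17.8 to 39.3), 84.1-fold in CPM. The other 7 were CADM1, a cell adhesion molecule (at least 66.8-fold), SAA1, an acute-phase protein (65.0-fold), IFI44, an interferon-stimulated gene (64.4-fold), NUP188, a nuclear pore scaffold protein (48.7-fold), BTBD6 (42.8-fold), GAS2L3, a cytoskeletal linker (42.5-fold), and ETFDH, a mitochondrial electron carrier of fatty acid oxidation (42.5-fold), each as a lower bound. These were not absent from LM2 cells in mice. NUP188, BTBD6 and IFI44 were each detected in 27 of 37 CTCs, SAA1 and ETFDH in 23, GAS2L3 in 18 and CADM1 in 16.

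The 4 genes counted as lower had small values. DVL1, which relays Wnt signals, had 0 in LM-1, 11.3 in LM-P4 and 8.31 in LM-P3 against 24.1 in LM-10, 56.1 in LM-3 and 32.6 in LM-2. KLHL22, an adaptor of a ubiquitin ligase, had 0, 6.46 and 16.6 against 62.1, 42.4 and 21.3. TRIM34 (means of 0.791 and 10.1) overlaps a read-through gene with TRIM6, and POTEKP (1.46 and 12.5) is a pseudogene with near-identical copies, so both are uncertain. The genes of highest mean were ACTB, MT-RNR2, GAPDH, ACTG1, MT-CO1, EEF1A1, LDHA, MT-CO3, ANXA2 and ENO1, and none counted as higher or lower. ACTB, cytoplasmic beta-actin, had 24222, 15193 and 21589 in LM-1, LM-P4 and LM-P3 and 30826, 32994 and 29762 in LM-10, LM-3 and LM-2.

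Programs were described with 31 gene lists by the share of a cell's reads on the list, which does not depend on the size factor, and by the members counted as higher. Shares are parts of a whole, so a share can be lower because others are higher. Shares did not overlap between the groups for 13 lists, 5 higher and 8 lower in gene-rich cells. No list had a member counted as lower, and over all tested genes 4 of 9729 did (0.0411%). Between 0 and 34.5% of the tested members of a list counted as higher, against the background of 22.1% over all genes, and 10 lists lay above it. That background fell with expression level, from 37.4% of genes with means under 32 to 0.658% at 512 or more. The 22.1% is therefore not matched to the level of a list. Gene-poor cells differed among themselves. The ratio of the highest to the lowest share was wider among gene-poor than among gene-rich cells for 28 of 31 lists, with median ratios of 1.5 and 1.18.

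**Figure D4:**
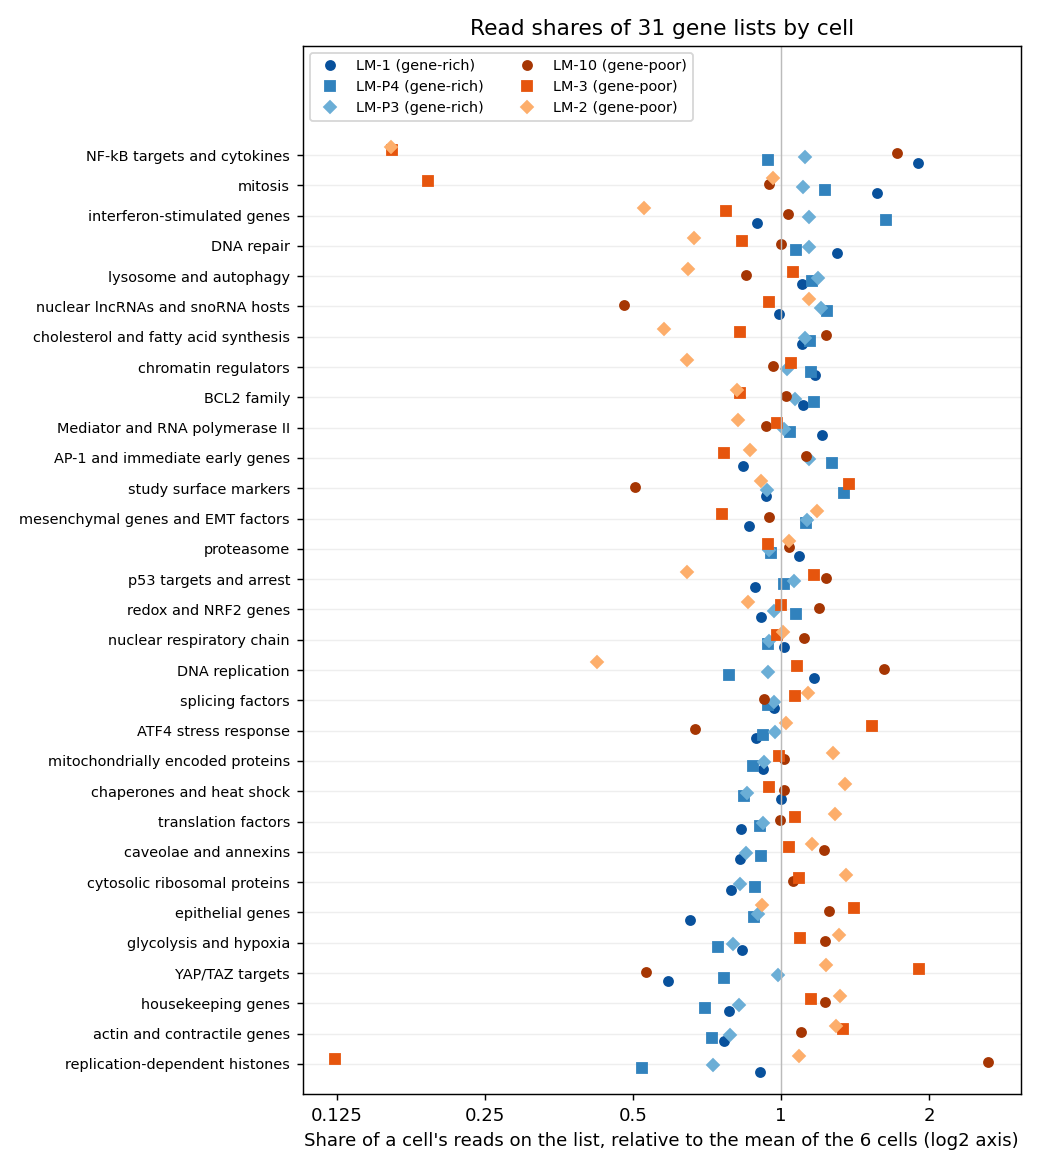
Share of a cell's reads on each of 31 gene lists, divided by the mean of the 6 cells (x axis, log2 scale), 1 symbol per cultured cell, lists ordered by the ratio of gene-rich to gene-poor means. Gene-poor cells (orange) spread widely for cytokines, mitosis and histones, where LM-3 sits far to the left, and lie to the right of gene-rich cells (blue) for housekeeping and actin genes.

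Mitotic genes were the clearest of the lists higher in gene-rich cells. The list took 1.68% of reads in LM-1, 1.32% in LM-P4 and 1.19% in LM-P3, against 1.01% in LM-10, 0.206% in LM-3 and 1.03% in LM-2. LM-3 lay far below the other 5 cells, and the remaining difference was small. Of 48 members, 13 counted as higher (27.1%), 10 with CPM and 9 with median-ratio scaling, and the median log2 ratio was 1.62 against 0.87 for all genes. The median of the members' means was 208, and 2.98% of all tested genes with means of 128 to 512 counted as higher. All 48 were detected in each gene-rich cell, 46 in LM-10, 47 in LM-2 and 22 in LM-3. TPX2, a spindle assembly factor, had 836, 665 and 775 in gene-rich cells against 145 in LM-10, 1.37 in LM-3 and 201 in LM-2. PLK1, the mitotic polo-like kinase, had 750, 566 and 414 against 58.6, 0 and 157. The kinesin gene KIF20A (648, 446 and 324 against 25.9, 0 and 65.2) had the largest ratio of the 5 members named by the rule, 12.1-fold in CPM. CENPE, a kinetochore motor, and CENPF, a kinetochore protein, were 6.43 and 3.88-fold higher in CPM. CCNB1, encoding cyclin B1, chosen after its values were seen, had 2731, 1474 and 1485 against 224, 0 and 1457, so that LM-2 reached the level of LM-P4 and LM-P3. The proliferation marker MKI67, chosen in the same way, was at 0 in LM-3 only, with 364 in LM-10 and 223 in LM-2.

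DNA replication genes did not separate the groups. Their share was 0.446 to 0.664% in gene-rich cells, and 0.920% in LM-10, 0.613% in LM-3 and 0.240% in LM-2, so gene-poor cells held both the highest and the lowest share. None of 37 members counted as higher. TK1, thymidine kinase, had 1217, 692 and 857 in gene-rich cells and 1243, 774 and 307 in LM-10, LM-3 and LM-2. RRM2, the ribonucleotide reductase subunit that limits dNTP supply in S phase, had 2455 in LM-10 and 376 in LM-2 but no read in LM-3, against 486 to 1011 in gene-rich cells. Replication-dependent histone genes had the widest spread of all lists among gene-poor cells, with 0.395% of reads in LM-10, 0.0187% in LM-3 and 0.163% in LM-2, a ratio of 21.2 between the highest and the lowest. H4C3, the histone H4 gene that led this list, had 4438 in LM-10, 134 in LM-3 and 1827 in LM-2, and 709 to 1936 in gene-rich cells. Thus LM-10 was high for replication genes and histones, and LM-3 was low for mitotic genes and histones. The shares of DNA repair genes did not overlap, at 0.152 to 0.184% against 0.0944 to 0.142%. Of 37 DNA repair genes 9 counted as higher (24.3%), against 22.1% over all genes, and 4 of 35 counted with median-ratio scaling. The median of their means was 36.1, and over all genes 37.4% with means under 32 and 13.0% with means of 32 to 128 counted. Their median log2 ratio was 0.78, below the 0.87 of all genes. Among the DNA repair genes counted as higher, the Fanconi anemia core gene FANCE had 53.7, 33.9 and 28.5 and no read in gene-poor cells. PRKDC, the catalytic subunit of DNA-dependent protein kinase, had 202 to 458 against 54.7 to 94.8.

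The 6 members of the NF-kB list counted as higher were all cytokine genes, detected in every gene-rich cell and at lower values or 0 in the gene-poor cells. NF-kB dimers bind short sites in the promoters of such genes, and CXCL1, CXCL2, CXCL3 and CXCL8 encode neutrophil-attracting chemokines clustered on chromosome 4. The promoters of these 4 genes are shown because their transcripts were counted as higher together. Each line holds a window of 60 bases from the 250 upstream of the start of transcription from RefSeq (GRCh38.p14). The windows were placed around a match and do not end at the start. They read 5′ to 3′ along the gene, with matches to the NF-kB-like motif GGNNTTTCC on either strand in capitals.
CXCL8, chr4:73740453-73740512, plus strand: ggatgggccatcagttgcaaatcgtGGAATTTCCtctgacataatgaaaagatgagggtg
CXCL1, chr4:73869315-73869374, plus strand: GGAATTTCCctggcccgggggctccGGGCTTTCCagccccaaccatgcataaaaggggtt
CXCL2, chr4:74099214-74099273, minus strand: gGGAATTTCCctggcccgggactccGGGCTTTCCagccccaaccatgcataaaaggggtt
CXCL3, chr4:74038708-74038767, minus strand: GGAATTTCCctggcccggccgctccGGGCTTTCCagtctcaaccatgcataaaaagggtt
The motif was found in the 250 bases upstream of 11 of the 17 tested members that had an entry, of 5.97% of the 7912 tested genes with an entry, and of 5.48% of all 27305 promoters. The match did not follow the count. IL1A and IL1B, counted as higher, had no match, whereas IL6, TNFAIP2, NFKBIA, NFKB1, BIRC3, ICAM1 and BCL3, not counted as higher, had a match. The list was chosen as NF-kB targets, so its share with the motif is not a result about the gene-rich cells. A match describes these letters and not a bound site.

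The NF-kB list took 0.504% of reads in LM-1, 0.25% in LM-P4 and 0.298% in LM-P3, and 0.458% in LM-10, 0.0430% in LM-3 and 0.0430% in LM-2. LM-10 thus lay within the range of the gene-rich cells, and LM-3 and LM-2 lay far below it. IL1B, IL1A, CXCL2 and CXCL3 had no read in LM-10, whose share was led by other members. In LM-10, CSF3, encoding the granulocyte factor G-CSF, led the list with 3627, against 965 to 2855 in gene-rich cells and 0 in LM-3 and LM-2. NFKBIA, the inhibitor of NF-kB and itself an NF-kB target, had 786 in LM-10, 384 to 495 in gene-rich cells, 94.4 in LM-3 and 70.2 in LM-2. Both genes were chosen after their values were seen. Of 21 tested members, 6 counted as higher (28.6%), 5 with CPM and 4 with median-ratio scaling. CXCL1 had 861, 190 and 246 in gene-rich cells, 63.8 in LM-10 and 0 in LM-3 and LM-2. CXCL8, or interleukin-8, showed the same order with 189, 147 and 205 against 60.3, 0 and 0. CXCL2 had 141, 21 and 99.7 against 0, 0 and 6.27, and CXCL3, outside the naming rule, had 21.9, 4.84 and 9.50 against 0, 0 and 2.51. IL1A, encoding interleukin-1 alpha, had 5.97, 4.84 and 30.9 and no read in gene-poor cells. CXCL1, CXCL2 and CXCL3 are near-identical copies, and reads that mapped to more than 1 place were not counted.

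Immediate early genes of the AP-1 group had the highest proportion of members counted as higher, 10 of 29 (34.5%), 7 with CPM and 4 with median-ratio scaling. Their shares overlapped, at 0.300 to 0.455% in gene-rich and 0.274 to 0.402% in gene-poor cells. Beside FOS, these included MCL1, an anti-apoptotic BCL2 family gene (105, 129 and 115 against 10.3, 10.9 and 57.7), IER5 (83.5, 108 and 83.1 against 1.72, 24.6 and 21.3) and the MAPK feedback genes SPRY2 (83.1 to 137 against 0 to 42.4) and ETV5 (53.4 to 74.2 against 0 to 29.3). MCL1 is also in the BCL2 list, whose share was higher in gene-rich cells, at 0.113 to 0.124% against 0.0860 to 0.109%. MCL1 was the 1 of 12 tested members of that list counted as higher (8.33%), and none of them counted with CPM or with median-ratio scaling.

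Interferon-stimulated genes had 9 of 28 members counted as higher (32.1%), against 22.1% over all genes. With CPM 7 of 26 counted, and with median-ratio scaling 6 of 25. The median of the members' means was 33.2, and over all genes 37.4% with means under 32 and 13.0% with means of 32 to 128 counted. The list's shares overlapped, at 0.107 to 0.195% against 0.0628 to 0.123%. Within the gene-rich cells LM-P4 stood highest. IFI44 had 39.8 in LM-1, 236 in LM-P4 and 51.0 in LM-P3, IFIT3 had 41.8, 110 and 17.8, and the antiviral GTPase gene MX1 had 19.9, 27.4 and 19.0, all 3 without a read in gene-poor cells. STAT2, a subunit of the factor that drives these genes, had 5.97, 61.3 and 60.5 against 0, 0 and 1.25. IFIT5 was found in LM-3 (10.9) and LM-2 (26.4) as well, against 38.7 to 77.6. Of the 43 genes of the list, 36 to 40 were detected in gene-rich cells and 16 to 19 in gene-poor cells. Over all genes, 11912 to 13679 and 7369 to 8467 were detected, the number by which the groups were formed.

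Mesenchymal genes, which LM2 expresses highly, overlapped in share (0.876 to 1.15% against 0.772 to 1.20%). Of 25 tested members, 8 counted as higher (32%), against 22.1% over all genes. With CPM 6 of 22 counted, and with median-ratio scaling 5 of 22. TGFBI, a TGF-beta-induced matrix protein, had 416, 160 and 302 against 19.0, 0 and 89.1, ITGA5, the fibronectin receptor subunit, had 45.2 to 103 against 0 to 12.6, and the collagen cross-linking enzyme gene LOX had 27.4 to 61.7 against no read. Epithelial genes took less of the reads of gene-rich cells (0.236 to 0.324% against 0.330 to 0.508%), although DSP, a desmosome gene, and OCLN, a tight junction gene, counted as higher (37.1 to 81.6 against 0 to 8.78, and 8.31 to 17.9 against no read). The list was led by the keratin gene KRT18, with 1406 to 1936 against 1734 to 2724.

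YAP/TAZ target genes differed mainly among the gene-poor cells. Their share was 0.542 to 0.907% in gene-rich cells, 0.489% in LM-10, 1.75% in LM-3 and 1.14% in LM-2. The matricellular genes CCN1 and CCN2, classical targets chosen after their values were seen, had 12584 and 4379 in LM-3, 4771 and 1853 in LM-2, and 1676 and 246 in LM-10, against 1583 to 3046 and 449 to 1030 in gene-rich cells. LM-3 was thus highest for YAP/TAZ targets and lowest for mitotic genes. Of 26 members 4 counted as higher (15.4%), among them TEAD1, a DNA-binding partner of YAP and TAZ, with 107, 32.3 and 78.3 against 0, 0 and 3.76, and the kinase gene LATS2, with 27.4 to 41.8 against 0 to 16.4.

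Lists of abundant genes took a smaller share of reads in gene-rich cells. Actin and contractile genes took 4.31, 4.07 and 4.43% in LM-1, LM-P4 and LM-P3 and 6.19, 7.54 and 7.28% in LM-10, LM-3 and LM-2. Cytosolic ribosomal proteins took 5.98 to 6.70% against 7.98 to 10.2%, glycolysis and hypoxia genes 2.58 to 2.90% against 3.79 to 4.55%, translation factors 1.96 to 2.18% against 2.36 to 3.04%, caveolae and annexin genes 1.46 to 1.61% against 1.84 to 2.17%, and mitochondrially encoded proteins 2.79 to 2.95% against 3.16 to 4.08%. Housekeeping genes, some of which are in these lists, took 2.96 to 3.46% against 4.86 to 5.55%. No member of these lists counted as higher except among glycolysis and hypoxia genes. Genes of the nuclear respiratory chain (1.91 to 2.05% against 1.98 to 2.25%) and the proteasome (1.40 to 1.61% against 1.40 to 1.54%) overlapped, and none of their 75 and 34 members counted as higher. With the deposited size factors the median log2 ratios of these lists lay between -0.18 and 0.46. All were below the 0.87 of all genes, which is not matched to their level. The median of the members' means ran from 130 for glycolysis and hypoxia to 2547 for mitochondrially encoded proteins. Over all genes the median log2 ratio was 0.49 for means of 128 to 512 and -0.05 for 512 or more. The medians of actin, mitochondrially encoded and caveolae genes changed from above to below 0 with CPM. With median-ratio scaling the medians of all these lists were below 0. So were those of DNA replication, histone, epithelial, ATF4, chaperone, redox and splicing genes, whose medians with the deposited size factors were above 0.

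Within the glycolysis list the members of low level behaved unlike those of high level. GAPDH (10222 to 15909 against 15967 to 18934) and LDHA (5814 to 11670 against 11631 to 13067) were not counted, whereas 7 of 37 members counted as higher (18.9%), and 7 also did with each of the other scalings. P4HA2, a collagen prolyl hydroxylase subunit, had 209, 115 and 145 against 1.72, 9.57 and 11.3, and the aldolase gene ALDOC had 71.6, 40.4 and 74.8 against no read. PFKM, muscle-type phosphofructokinase, had 79.5 to 118 against 2.51 to 25.9, VEGFA, the angiogenic growth factor, 27.9 to 67.7 against 0 to 10.3, and NDRG1, a hypoxia-induced gene, 5.97 to 48.7 against no read.

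**Figure D5:**
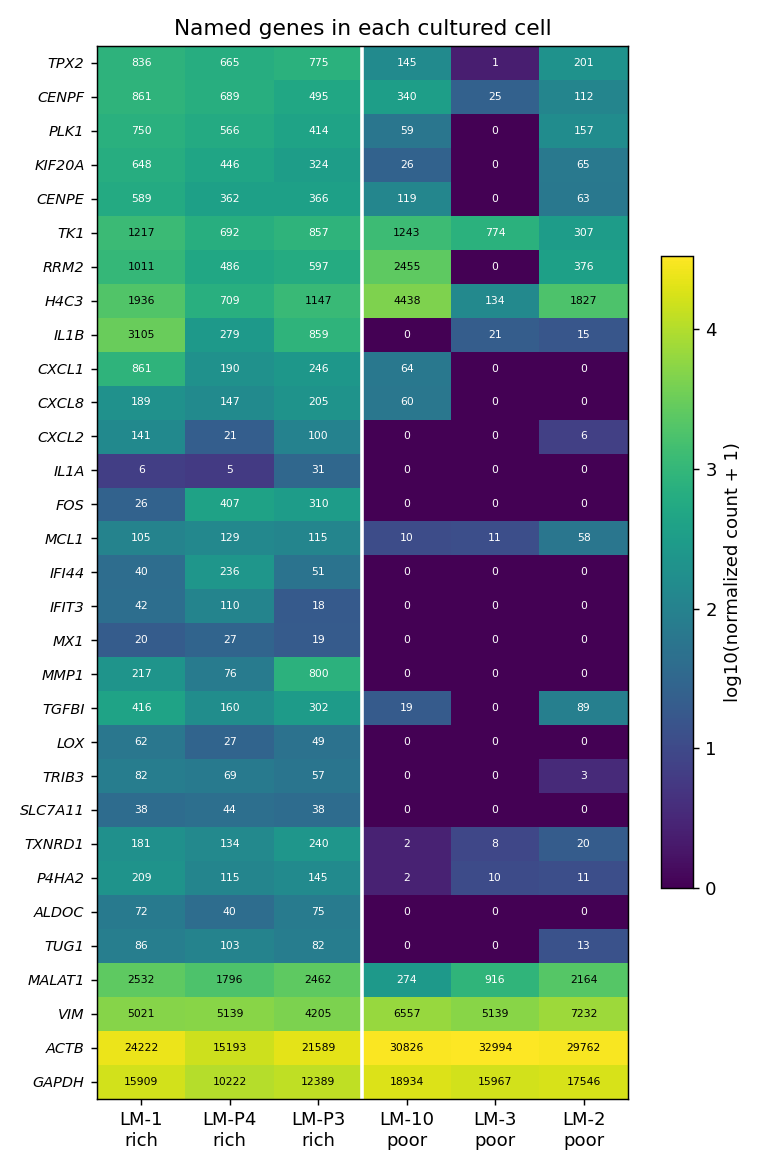
Normalized counts of 31 named genes (rows) in the 6 cultured cells (columns), colored by log10(normalized count + 1) with the value printed in each cell of the grid. The mitotic genes are at or near 0 in LM-3 except CENPF (24.6), CXCL1 and CXCL8 are at 0 in LM-3 and LM-2, and IFI44, IFIT3, MX1, MMP1 and LOX are at 0 in all gene-poor cells, whereas VIM, ACTB and GAPDH are high in every cell.

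Stress and lipid programs lay on both sides of the background of 22.1% in their counts, and that background was not matched to expression level. For the ATF4 response 6 of 27 members counted as higher (22.2%), among them TRIB3, a pseudokinase (81.6, 69.4 and 57.0 against 0, 0 and 2.51), and the cystine transporter gene SLC7A11 (37.8, 43.6 and 38 against no read), which is also in the redox list. LM-3 had the highest share of this list (0.750%) and LM-10 the lowest (0.327%). Of 32 redox genes 4 counted as higher (12.5%), including TXNRD1, thioredoxin reductase (134 to 240 against 1.72 to 20.1), and TXNIP, a thioredoxin inhibitor (102 to 195 against 5.02 to 22.4). For cholesterol and fatty acid synthesis the count was 8 of 33 (24.2%), led by the sterol dehydrogenase gene NSDHL (92.0 to 171 against 2.73 to 51.4) and ATP citrate lyase, ACLY (95.5 to 142 against 1.72 to 45.2). Chaperones had 3 of 36 (8.33%), led by BAG3, an HSP70 co-chaperone (263 to 347 against 15.1 to 126). Of 15 tested p53 target and arrest genes 5 counted as higher (33.3%) and none did with median-ratio scaling, while their shares overlapped, at 0.0811 to 0.0973% against 0.0592 to 0.113%. GADD45A, a stress-induced growth arrest gene, had 59.7 to 95.5 against 0 to 33.9. CDKN1A, the cell cycle inhibitor p21, chosen after its values were seen, had 102 to 231 in gene-rich cells, 726 in LM-10, 39.7 in LM-3 and 16.3 in LM-2.

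Among the surface markers of interest to the study, ERBB2 (HER2) had 13.9, 24.2 and 14.2 in gene-rich cells and no read in gene-poor cells, at least 10.5-fold higher. Its 34 reads in gene-rich cells (23.6 to 47.5) make this a low value, and ERBB2 was detected in 17 of 37 CTCs. EGFR, its family member, had 173, 129 and 127 against 29.3 in LM-10, 17.8 in LM-3 and 107 in LM-2, without overlap but 2.76-fold by the means. EPCAM, the epithelial adhesion molecule, had 35.8, 24.2 and 15.4 against 27.6 in LM-10, 140 in LM-3 and 0 in LM-2, and CAVIN1, a caveolar coat protein, 375 to 436 against 159 to 518, both overlapping. AHNAK2 (21.4 to 72.6 against 2.51 to 146), ODR4 (41.6 to 87.5 against 0 to 56.9) and TRIML2 (7.96 to 22.6 against 0 to 17.2) overlapped too.

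The list shares were then set against genes detected in CTCs, which the rule did not use. This was done within mice with at least 6 CTCs, 10 from mouse 5545 and 17 from mouse 5546, as Spearman's rho without a p-value, since CTCs of 1 mouse share a host and the share and the gene number come from the same reads. All 5 lists with higher shares in gene-rich cultured cells had a positive rho in both mice. For mitosis rho was 0.624 and 0.444, for DNA repair 0.467 and 0.174, for Mediator and RNA polymerase II 0.309 and 0.377, for lysosome and autophagy 0.285 and 0.252, and for the BCL2 family 0.139 and 0.336. A positive rho in both mice was not particular to these lists. Among the 18 lists whose culture shares overlapped, ATF4 genes were at 0.576 and 0.230 and chaperones at 0.212 and 0.5. Others of the 18 differed in sign between the mice, such as cholesterol and fatty acid synthesis (0.382 and -0.201). Of the 8 lists with lower shares, all 8 had a negative rho in mouse 5545 and 4 did in mouse 5546. Actin genes were at -0.564 and -0.203, and cytosolic ribosomal proteins at -0.345 and -0.176, whereas glycolysis and hypoxia genes were at -0.503 and 0.350 and housekeeping genes at -0.636 and 0.0392. The names of the CTCs of mouse 5546 carry the letters c (9 CTCs, 7782 to 12299 genes) or s (8 CTCs, 4656 to 7538 genes), which the sources do not explain and which do not overlap in gene number. Within letters the signs held for 3 of the 5 lists with higher shares and 2 of the 8 with lower shares in each letter, and mitosis had a rho of 0.133 for c and -0.667 for s.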

How the data were processed

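Values of 6 cultured LM2 cells and 37 CTCs by SMARTseq2 were used. The authors aligned reads to GRCh38 with GENCODE release 38 and STAR 2.7.10a, and counted uniquely mapped reads without strand. The alignment options also name removal of duplicate reads, and which count was deposited is not stated. The table deposited by the authors holds a signal: counts over DESeq2 1.42.1 size factors. Dividing by the smallest nonzero value of a cell gave whole reads for 100% of values (tolerance 0.001). These reads gave depth, shares, thinning (exact expectation; seeded draws for the other results) and scalings. No count test was run on them, because cells of 1 culture are not replicates. GENCODE release 44 matched 25684 of 25739 genes.

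Samples were grouped from labels and the cultured cells split by the rule given. Members and lists were chosen with earlier results of these data known. Genes were named from the 10 protein-coding genes with the largest ratio among those counted as higher, and from all 4 counted as lower, of any type. Further sources were the 10 of highest mean, the marker and surface lists, and up to 5 members counted as higher or lower per list by mean, filled to 3 by the highest means. Others are said to be chosen after their values were seen. Not every gene the rule admits is printed, and 1 is not reported here. The exact 95% Poisson intervals and the floor of 3 reads cover counting error only, since PCR copies are not independent molecules. Python 3.11.15, numpy 2.4.6, pandas 2.3.3 and scipy 1.17.1 were used, and the steps were tested on simulated data.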

Additional observations from a re-analysis of the deposited data

Results flagged for a closer look

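In 37 measures over the 6 cultured cells, the gap of 1 cell to the nearest other was compared with the whole range by Dixon's criterion, which chance exceeds in about 1 of 20 groups. It was exceeded in 2 measures, both by LM-2. The share of reads on mitochondrially encoded proteins was 4.08% in LM-2, above the 2.79 to 3.24% of the other 5 cells. The share on chaperones and heat shock genes was 3.85% in LM-2, above the 2.40 to 2.90% of the others. Neither was examined further.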

How the results depend on the processing

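The 2146 genes counted as higher became 889 with median-ratio scaling, 643 with a pseudocount of 8 and 907 with a minimum mean of 32, and 2211 to 2850 when 1 cell was left out. All of the 889 and 643 were among the 2146. The 4 genes counted as lower became 16 with median-ratio scaling, 0 with a pseudocount of 8, 2 with a minimum of 32 and 23 with a 2-fold ratio. Without LM-2 there were 38, without LM-10 17, without LM-3 16, without LM-P3 9, without LM-P4 7 and without LM-1 6. With LM-1 as the only gene-rich cell, an alternative chosen after seeing the data, 2500 counted as higher and 35 as lower. Fewer cells make non-overlap easier. The number of lists without overlap was 13 to 19 with 1 cell left out. The ratio of genes detected was 1.59 to 1.73 with 1 cell left out, and its definition did not move it beyond the SD of the 9 pairs of cells (0.149). The gap in median correlation, 0.186, was 0.224 over genes detected in all 6 cells. Of 341 list medians under alternatives, 37 moved by more than the list's own SD over the 9 pairs of a gene-rich and a gene-poor cell; the cause was not tested. No paired analysis was possible because no result comes from a test. Genes of few reads limit all of these counts: 1 read was worth 1.19 to 1.99 in a cultured cell.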

Other observations

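Gene regulation and membrane traffic programs gave smaller differences. Chromatin regulators had 9 of 43 members counted as higher (20.9%), led by the histone demethylase gene KDM1A (119 to 147 in gene-rich and 5.17 to 22.6 in gene-poor cells), and overlapping shares. Mediator and RNA polymerase II genes had 5 of 46 (10.9%), with shares of 0.313 to 0.374% against 0.252 to 0.304%; POLR2B, the second largest polymerase subunit, had 61.3 to 92.6 against 0 to 28.9. Lysosome and autophagy genes had 8 of 37 (21.6%) and shares of 0.687 to 0.739% against 0.403 to 0.658%, led by HEXA, a hexosaminidase subunit (150 to 346 against 0 to 76.5). Of 46 splicing factors 3 counted as higher (6.52%), including HNRNPH1 (364 to 906 against 86.2 to 261) and SRSF6 (298 to 1053 against 67.2 to 175). Among 27 nuclear lncRNAs and snoRNA hosts 2 did (7.41%), the lncRNAs TUG1 (81.9 to 103 against 0 to 12.6) and KCNQ1OT1 (17.9 to 22.6 against 0 to 1.72), while MALAT1 overlapped (1796 to 2532 in gene-rich cells, 274 in LM-10, 916 in LM-3 and 2164 in LM-2).

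The share of genes counted as higher was also computed by summed exon length at matched level. Among tested genes with a mean of 32 to 128, 8.05% of the short group (up to 4016 bases), 15.2% of the middle group and 15.7% of the long group, each of near equal size, counted as higher. Under a mean of 32 the shares were 33.6, 38 and 40.6%.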
